A study of Mus musculus with 9 samples.

Results

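Among 9 mouse kidney RNA-seq libraries, 5 held many transcripts of the uroplakins Upk1a, Upk1b, Upk2 and Upk3a and 4 held few. The 2 sets were compared here across the transcriptome. The counts of these 4 genes were summed in each library and divided by that library's total count. The 5 highest libraries, called uroplakin-rich below, were saline replicates 2 and 3, LPS replicates 1 and 2 and LPS+Tβ4 replicate 3. The 4 lowest, called uroplakin-poor, were saline replicate 1, LPS replicate 3 and LPS+Tβ4 replicates 1 and 2. All 9 libraries of the series belong to one or the other set. The sets were defined from the measured counts and are not groups of the study. A difference between them is therefore a description of what varied together with the uroplakins from library to library.

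The study measured poly(A) RNA from the kidneys of 3 mice in each of 3 groups: saline as control, LPS, and LPS together with thymosin β4 (LPS+Tβ4). LPS, the lipopolysaccharide of the bacterial outer membrane, is used to model the kidney injury of sepsis, and thymosin β4 is a small actin-binding peptide. The labels name tissue and treatment, and say nothing of dose, time, strain, sex, age or which piece of the kidney was taken. The p-values measure the spread between these libraries.

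Uroplakins are membrane proteins that assemble into the rigid plaques covering the luminal face of the urothelium, the stretchable epithelium that lines the renal pelvis, ureter and bladder. Upk1a pairs with Upk2, and Upk1b pairs with Upk3a. In the kidney this lining is restricted to the pelvis and the papillary surface, where it lies beside smooth muscle, connective tissue, the inner medulla and the fat of the renal sinus. Basal urothelial cells express keratin 5 and p63, and the differentiated layers above them carry the uroplakins.

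The promoters of Upk1a and Upk3a are shown because both genes followed the same split between libraries. The sequences are the 250 bases before the RefSeq transcript start on the gene's own strand (GRCm38.p6), and RefSeq windows for Upk1b and Upk2 were not used here. Capitals mark matches to AGATAA, called the GATA motif, or to GGGCGG, called the GC box. Both were searched on both strands, as was TATAAA, called the TATA motif.
Upk1a, chr7:30612735-30612984, minus strand: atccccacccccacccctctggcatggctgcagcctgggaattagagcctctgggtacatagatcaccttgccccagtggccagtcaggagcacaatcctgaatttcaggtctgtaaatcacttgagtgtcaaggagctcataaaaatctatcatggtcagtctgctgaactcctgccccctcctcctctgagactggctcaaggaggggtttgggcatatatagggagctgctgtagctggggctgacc
Upk3a, chr15:85016891-85017140, plus strand: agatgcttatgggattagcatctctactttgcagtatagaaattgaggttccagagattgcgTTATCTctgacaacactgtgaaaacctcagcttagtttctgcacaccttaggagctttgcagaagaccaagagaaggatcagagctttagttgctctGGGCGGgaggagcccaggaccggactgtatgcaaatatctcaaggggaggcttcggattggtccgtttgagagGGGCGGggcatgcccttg
The Upk3a window held 1 GATA match, printed as its reverse complement, and 2 GC boxes. The Upk1a window held none of the 3 motifs. Of 32851 RefSeq windows of this length, 9.99% held the GATA letters, 32.7% the GC box and 12.4% the TATA letters. The deposited table places Upk1a at chr7:30603092-30612847, so on this minus-strand gene the deposited annotation starts inside the printed window. It places Upk3a at chr15:85017141-85022547, starting directly after the printed window. Upk1b was placed at chr16:38773184-38800328 and Upk2 at chr9:44452715-44454976.

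The summed uroplakin counts separated the libraries with a wide gap. As raw CPM, the count scaled by the library total alone, the sums were 56.5 and 59.6 in saline replicates 2 and 3, 49.2 and 39.8 in LPS replicates 1 and 2, and 61.4 in LPS+Tβ4 replicate 3. The 4 other libraries held 1.47 (saline replicate 1), 0.691 (LPS replicate 3), 0.693 and 0.544 (LPS+Tβ4 replicates 1 and 2). The lowest library inside the rich set, LPS replicate 2, was thus 27.1 times the highest outside it, saline replicate 1. Each treatment had libraries on both sides. These 4 genes chose the sets, so their values are given without a test. Totals were 52953654 to 62019631 counts per library.

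The 4 uroplakins did not keep one ratio across the rich libraries. From here on, values per library follow one order: saline 2, saline 3, LPS 1, LPS 2 and LPS+Tβ4 3 for the rich set, and saline 1, LPS 3, LPS+Tβ4 1 and LPS+Tβ4 2 for the poor set. Upk1a stood at 18.4, 19.8, 6.3, 8.57 and 7.91 raw CPM in the rich set and at 0.3, 0.414, 0.403 and 0.181 in the poor set. Upk1b stood at 18.3, 18.7, 36.1, 24.9 and 41.3 in the rich set and at 0.512, 0.276, 0.29 and 0.363 in the poor set. Among the rich libraries Upk1a was thus highest in saline and Upk1b highest in the libraries that had received LPS. Upk2 varied least in the rich set, at 6.67, 6.47, 5.77, 4.72 and 7.05. Upk3a was 13.1 and 14.7 in the rich saline libraries, 1.05 and 1.55 in the rich LPS libraries and 5.17 in the rich LPS+Tβ4 library. In saline replicate 1 Upk2 had 10 counts and Upk3a 27. Both genes had 0 counts in the other 3 poor libraries, where a floor of 3 counts corresponds to 0.0518, 0.0484 and 0.0494 raw CPM. The floor covers counting error only.

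**Figure D1:**
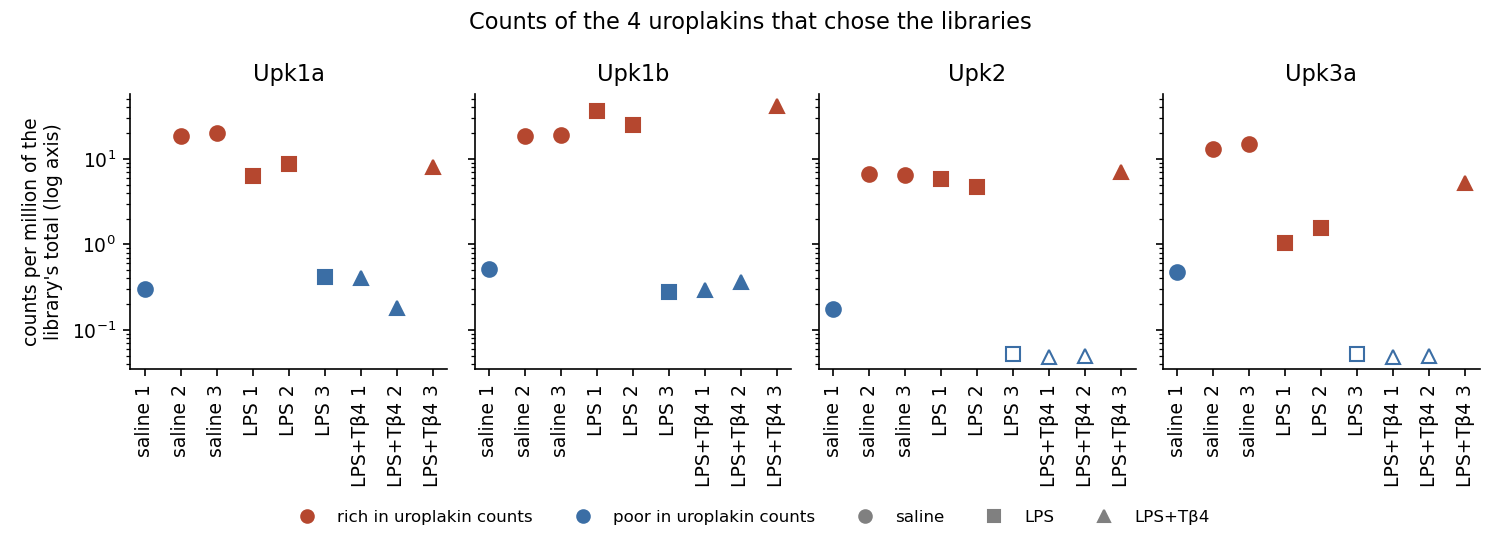
Raw CPM of Upk1a, Upk1b, Upk2 and Upk3a (log axis) in the 9 libraries, with red for the 5 rich and blue for the 4 poor libraries, and the marker shape for treatment. Open symbols stand for 0 counts and are drawn at the floor of 3 counts. All 4 genes are higher in every red point than in every blue one, and Upk3a is lower in the 2 red LPS libraries (1.05 and 1.55) than in the 2 red saline libraries.

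Across the transcriptome the libraries rich in uroplakins also carried more of many other transcripts, and few were lower. The test was edgeR's quasi-likelihood test with treatment as covariate over 15015 genes whose FPKM (reads scaled by gene length and library size) averaged 0.5 or more. The 4 uroplakins were part of the fit and of the p-value adjustment. They were left out of the counts of genes, which cover the 15011 others. At a Benjamini-Hochberg adjusted p under 0.05, 382 genes (2.54%) differed. Of these, 358 (2.38%) were higher and 24 (0.16%) lower in the rich libraries. Called genes that were higher had a median log2 difference of 2.01 and those that were lower −0.89, against −0.02 over all genes tested. From here on CPM is after TMM scaling. The CPM of the 5 and the 4 libraries did not overlap for 474 genes higher in the rich set (3.16%) and for 110 lower (0.733%). Of the 358 higher genes, 357 were higher in every rich than in every poor library within each treatment, and 21 of the 24 lower genes were lower in that way. Over all 15011 genes, called or not, 1851 were higher and 1462 lower in that way. The calls come from the same libraries with treatment as covariate, so this is a description. In these bulk samples, fewer cells of a type and less RNA per cell cannot be told apart. The first principal component, with 51.5% of the variance, separated saline from the 6 other libraries. On the second, with 18.3%, the 5 rich libraries lay between −56.7 and −13.6 and the 4 poor libraries between 25.6 and 81.

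The number of calls depended most on LPS+Tβ4 replicate 3, the one rich library of its group. Without it 2 genes passed, Akr1b3 and Nfe2l3, and 1491 had an unadjusted p under 0.05, against 2959 with all 9 libraries. Leaving out each of the other libraries gave 880 genes without saline replicate 1, 505 without LPS replicate 1, 420 without saline replicate 3 and 326 without LPS replicate 2. It gave 193 without saline replicate 2, 141 and 132 without LPS+Tβ4 replicates 2 and 1, and 111 without LPS replicate 3. Log2 differences of 61 called genes followed through the alternatives kept their sign in each. Without LPS+Tβ4 replicate 3 some differences changed little, with Psca at 6.57 (7.04 with all libraries), Krt19 at 5.06 (5.57), Klf5 at 2.75 (2.98), Upk3b at 5.39 (5.43) and Cnn1 at 2.96 (2.93). Others moved more. Gcnt3 fell to 6.35 (7.81) and Ccl8 to 5.71 (7.09), while Syt8 rose to 7.31 (6.32) and Gsdmc2 to 7.76 (6.93). In the paragraphs below, the adjusted p without LPS+Tβ4 replicate 3 is given for each gene group.

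**Figure D2:**
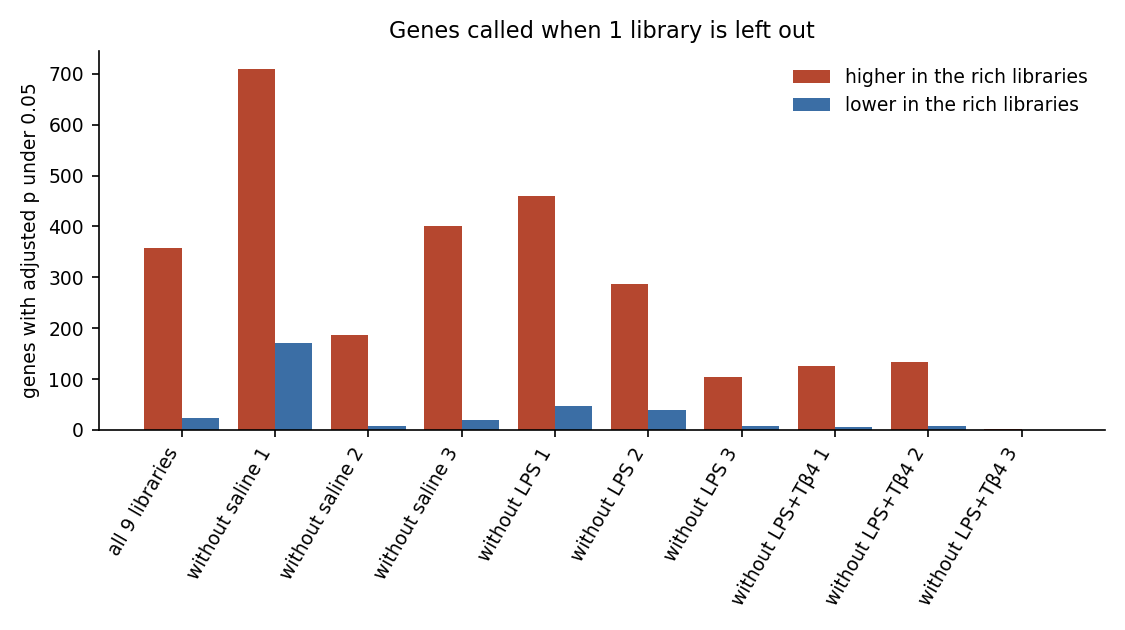
Number of genes with an adjusted p under 0.05, higher (red) or lower (blue) in the rich libraries, with all 9 libraries and with each library left out in turn. The bars are 358 and 24 with all libraries, and 2 and 0 without LPS+Tβ4 replicate 3.

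Genes of the upper urothelial layers followed the uroplakins in part. Of 20 such genes, 17 passed the expression filter, 7 were higher in the rich libraries (background 2.38%), none was lower, and the median log2 difference was 1.28. A gene silent in the poor libraries could enter only through its level in the rich ones, so these list counts and medians are descriptions. Psca, a surface protein of urothelial and gastric epithelium (chr15:74714839-74717069), was 63.3, 25.5, 29, 43.7 and 37.2 CPM in the rich set. In the poor set it was 0.973, 0.0547, 0 and 0.306 CPM, and the sets did not overlap (log2 difference 7.04 ± 0.85 SE, adjusted p = 0.00776). Krt19, a keratin of simple and stratified epithelia (chr11:100140810-100146120), was 12.1, 26.8, 83.5, 97.6 and 142 CPM against 0.892, 1.77, 1.94 and 1.5 CPM. All 5 rich libraries lay above all 4 poor ones (5.57 ± 0.43, adjusted p = 0.0023). Krt18 differed by 2.08 ± 0.19 and Krt8, its keratin partner, by 0.73 ± 0.14, and Krt8 overlapped between the sets. Vsig2 was higher by 2.67 ± 0.42 and Gsdmc2, a gasdermin, by 6.93 ± 1.17. Krt20, a keratin of umbrella cells, did not pass (−0.34 ± 0.73, adjusted p = 0.822). Its CPM followed treatment, at 2.13 to 7.12 in saline and 75.6 to 576 in the 6 LPS-treated libraries. None of the 17 passed without LPS+Tβ4 replicate 3 (Krt19 adjusted p = 0.0511, Psca 0.13), and without each other library 3 to 10 did.

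Of 20 listed basal urothelial genes, 12 passed the filter, 7 were higher, none lower, and the median was 2.81. By limma on log2(FPKM + 1) it fell below that of the upper layer list. Ly6d, a surface protein of basal and stratified epithelia, was 7.52, 13.6, 25.1, 18.9 and 52.8 CPM in the rich set. It was 0.487, 0.0729, 0.339 and 0.403 CPM in the poor set, with no overlap (6.36 ± 0.65, adjusted p = 0.00431). Trp63, the p63 transcription factor of basal cells, was 4.67, 6.23, 10.9, 6.33 and 13 CPM against 0.872, 0.93, 0.97 and 0.306 CPM. The sets were again apart (3.42 ± 0.47, adjusted p = 0.0117). Lamb3, a laminin chain of the epithelial basement membrane, was higher by 4.01 ± 0.36 and overlaps several other annotated genes. Of the other list members that passed, chosen for mention after their values were seen, Krt5 was 6.69, 14.3, 19.1, 8.8 and 41 CPM against 0, 2.55, 0.404 and 0.532. Its adjusted p of 0.0495 lay at the threshold (5.01 ± 1.03). Shh, the hedgehog ligand made by urothelium, was 2.28, 2.66, 5.03, 3.64 and 7.61 CPM against 0.446, 0, 0.113 and 0.161 (4.77 ± 0.90, adjusted p = 0.0355). Itgb4, the hemidesmosome integrin, was higher by 2.19 ± 0.40. None of the basal genes passed without LPS+Tβ4 replicate 3 (Lamb3 adjusted p = 0.0587, Krt5 0.422), and without each other library 2 to 8 did.

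Transcription factors of urothelial differentiation gave 10 tested genes of 12 listed, with 5 higher, none lower and a median of 1.53. Foxa1, a pioneer factor of endodermal epithelia, was 4.38, 5.21, 14.2, 9.25 and 15.1 CPM in the rich set and 0.284, 0, 0 and 0.0968 CPM in the poor set. The sets did not overlap (6.67 ± 1.07, adjusted p = 0.0211). Pparg, the nuclear receptor that drives urothelial and adipocyte differentiation, was 12.2, 5.23, 6.3, 11.2 and 14.3 CPM against 1.42, 1.17, 1.47 and 2.55 CPM (2.78 ± 0.36, adjusted p = 0.0103). Ehf, an epithelial Ets factor, was 64.6 to 264 CPM against 23.7 to 51.6 CPM (1.98 ± 0.23). Klf5, an epithelial Krüppel-like factor, had overlapping sets. It was 6.88 and 4.9 CPM in rich saline libraries, 59.5, 56.4 and 29.9 in the other rich ones, and 1.03, 7.29, 3.6 and 2.19 in the poor set (2.98 ± 0.23, adjusted p = 0.0023). Elf3, the fifth, differed by 1.54 ± 0.25 and was named after its values were seen. None of the factors passed without LPS+Tβ4 replicate 3 (Klf5 adjusted p = 0.0511, Foxa1 0.257), and without each other library 2 to 8 passed.

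Small proline-rich proteins are crosslinked under the membrane of stratified epithelia, and some of them were higher in the rich set. Of 10 listed barrier genes, 5 passed the filter and 2 were higher, Sprr2a1 and Sprr1a, with a median of 3.18 over the list. Sprr2a1 was 35.9, 25.7, 69.3, 40.7 and 62.8 CPM against 0.75, 0.237, 0.194 and 1.58 (6.28 ± 0.70, adjusted p = 0.00574). Sprr2a2 overlaps it on the same strand and differed by 6.25 ± 0.71, and the reads of these 2 copies may be shared. Sprr1a was 16.2, 18.3, 40.3, 19 and 63 CPM against 0.142, 2.53, 9.6 and 3.9 (4.08 ± 0.66, adjusted p = 0.0211). Both pairs of sets were without overlap. Sprr2f of the same family did not pass (0.50 ± 0.62, adjusted p = 0.684). Neither passed without LPS+Tβ4 replicate 3 (adjusted p = 0.103 for Sprr2a1 and 0.153 for Sprr1a), and without LPS replicate 3 or LPS+Tβ4 replicate 2 only 1 did.

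The 12 genes with the largest rises among called, non-overlapping genes with an FPKM averaging 1 or more came from 169 candidates. Besides Psca, Gsdmc2, Foxa1, Ly6d, Sprr2a1 and Sprr2a2 they were Gcnt3, Ccl8, Gsdmc3, Tmem238l, Syt8 and Retn. Gcnt3, a glycosyltransferase that branches mucin sugars, led with 6.74, 8.1, 16.3, 8.57 and 21.7 CPM against 0.243, 0, 0 and 0 (7.81 ± 1.15, adjusted p = 0.0154). Gsdmc3, a paralog of Gsdmc2, was like it highest in saline replicate 2 (32 CPM). It was 7.84, 2.57, 0.71 and 1.44 in the other rich libraries and 0.324, 0, 0 and 0 in the poor set (6.63 ± 0.90, adjusted p = 0.0116). Tmem238l was 10.2, 3.88, 7.22, 6.16 and 8.87 CPM against 0.203, 0, 0 and 0.0645 (6.90 ± 0.89, adjusted p = 0.0103). Syt8, a synaptotagmin, was 1.91 to 9.5 CPM against 0 to 0.242 CPM (6.32 ± 0.64, adjusted p = 0.00431). Ccl8, a monocyte chemokine, had 0.834 and 0.795 CPM in the rich saline libraries and 9.02, 62.5 and 35.8 in the other rich ones. The poor libraries had at most 0.242 CPM (7.09 ± 1.45, adjusted p = 0.0479). No treatment comparison of Ccl8 passed, and its difference between sets missed the threshold in 14 of 22 alternatives, where adjusted p reached 0.656. Without LPS+Tβ4 replicate 3 these adjusted p-values ran from 0.0616 (Syt8) to 0.484 (Ccl8). Gcnt3 also missed the threshold without LPS replicate 3 or either of the 2 poor LPS+Tβ4 libraries.

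**Figure D3:**
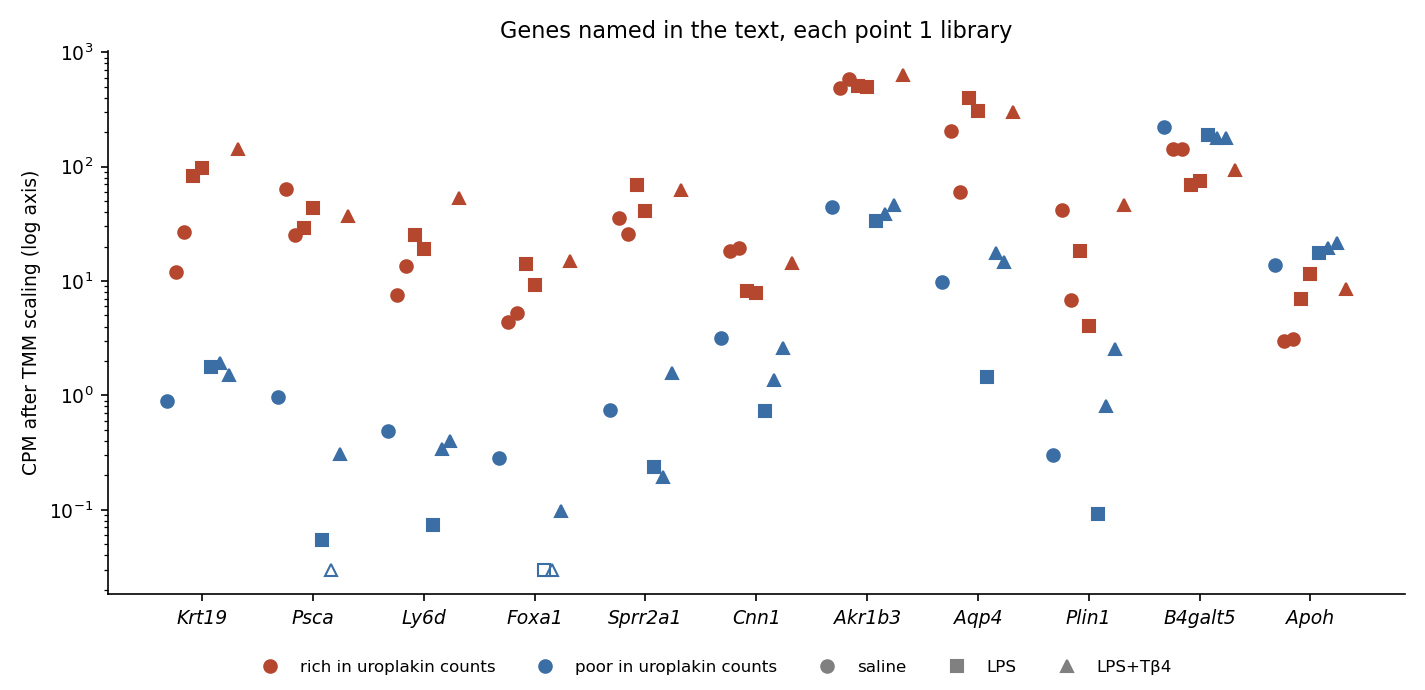
CPM after TMM scaling (log axis) of 11 genes named in the text, 1 point per library in the order saline, LPS, LPS+Tβ4, red for rich and blue for poor libraries. Open symbols are 0 counts, drawn at the lower edge. Akr1b3 shows the tightest separation (483 to 628 against 33.7 to 45.8), and B4galt5 and Apoh are lower in every red point than in every blue point.

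Mesothelin and related genes were higher in the rich libraries. On a list of 8 mesothelial genes, 3 passed the filter and all of those were higher (Msln, Upk3b and Krt19), with a median of 5.57. Krt19 is also on the upper layer list. Upk3b, an uroplakin family member also made by mesothelium, was 29.2, 8.87, 11.2, 5.75 and 12.7 CPM against 0.446, 0.2, 0.339 and 0.226 (5.43 ± 0.48, adjusted p = 0.00274). Msln, mesothelin, was 1.34, 2.59, 30, 13.8 and 15.3 CPM against 0.122, 0.182, 0.275 and 0.194 (5.83 ± 0.59, adjusted p = 0.00421). Both genes were free of overlap between the sets. The defining mesothelial genes Lrrn4, Bnc1 and Muc16 were at 0 to 0.226 CPM in all 9 libraries. The 3 missed the threshold without LPS+Tβ4 replicate 3 (Krt19 0.0511, Upk3b 0.0587 and Msln 0.0947), and all 3 passed without each other library.

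Contractile genes of smooth muscle, which wraps the renal pelvis and the arteries, were higher in part. Of 15 listed, 12 passed the filter, 8 were higher and none lower, and the median was 1.31. Cnn1, calponin (chr9:22099216-22109630), was 18.4, 19.3, 8.21, 7.85 and 14.3 CPM in the rich set and 3.18, 0.729, 1.37 and 2.6 CPM in the poor set. The sets did not overlap (2.93 ± 0.27, adjusted p = 0.00294). Myh11, smooth muscle myosin, was 162, 180, 61.8, 64.3 and 95.5 CPM against 51.8, 17.3, 21.5 and 40.4, again without overlap (1.74 ± 0.19, adjusted p = 0.00567). Tpm2 was higher by 1.41 ± 0.17 and Synm by 1.51 ± 0.20. Actg2, the actin of visceral smooth muscle, was mentioned after its values were seen. It was 10.9, 11.8, 12.1, 10 and 16.3 CPM against 1.32, 0.2, 0.097 and 0.468 (4.76 ± 0.66, adjusted p = 0.0122). Acta2, which arteries express strongly too, differed less (1.26 ± 0.21, adjusted p = 0.0242). The difference between these 2 values was not tested. Of 11 fibroblast genes tested (14 listed), Gsn and Fbln1 were higher, by 1.40 ± 0.22 and 1.64 ± 0.29, with a list median of 0.79. Without LPS+Tβ4 replicate 3 none of either list passed (Cnn1 0.0587, Fbln1 0.294), without LPS replicate 3 the smooth muscle count was 3, and without each other library it was 6 to 9. The fibroblast count was also 0 without saline replicate 2, LPS replicate 3 or LPS+Tβ4 replicates 1 and 2.

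The single most constant difference was in Akr1b3, the aldose reductase that makes the osmolyte sorbitol in the hypertonic inner medulla (chr6:34302434-34317459). It stood at 483, 585, 507, 495 and 628 CPM in the rich set and at 44.3, 33.7, 38.4 and 45.8 CPM in the poor set. The means were 539 ± 63.4 CPM (SD, n = 5) and 40.6 ± 5.58 CPM (SD, n = 4), and the sets were far apart in every treatment. The log2 difference was 3.79 ± 0.14 with an adjusted p of 5.52e-05, and it ranged from 3.66 to 3.93 over the alternatives. Akr1b3 passed in every alternative run, alone among the 61 called genes followed, and without LPS+Tβ4 replicate 3 its adjusted p was 0.00461. Of the 5 other osmolyte genes none passed. Slc6a12, the betaine transporter, was 5.18, 15.3, 6.61, 9.42 and 3.83 CPM against 0.791, 0.82, 0.501 and 0 (3.63 ± 0.80, adjusted p = 0.0609). The taurine transporter Slc6a6 was −0.41 ± 0.20. The list median was 0.91.

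Among collecting duct genes of the papilla few passed, and their directions were mixed. Aqp4, the basolateral water channel of principal cells, was 206, 60.4, 397, 308 and 298 CPM in the rich set and 9.8, 1.46, 17.7 and 14.6 CPM in the poor set. The sets were apart (4.85 ± 0.82, adjusted p = 0.0239). Slc14a2, the urea transporter of the inner medullary collecting duct and thin limb, did not pass (5.07 ± 1.53, adjusted p = 0.132), although 120, 50.8, 354, 105 and 97.5 CPM faced 2.92, 0.292, 33.3 and 2.9 without overlap. Cldn4, a tight junction protein, was higher by 1.30 ± 0.22 (adjusted p = 0.0232) with overlapping sets. Cryab, a small heat shock protein of the papilla, was 175 to 335 CPM against 31.7 to 124 CPM (adjusted p = 0.0651). Of 8 inner medullary genes tested (10 listed), 2 were higher, Aqp4 and Cldn4, with a median of 1.38, and of 10 principal cell genes only Aqp4 was (median 1.05). Aqp2, the vasopressin-regulated channel present along the whole collecting duct, overlapped between sets (1.34 ± 0.80, adjusted p = 0.387). Negative differences that did not pass were those of Cldn3, Slc9a2, Scnn1b, Scnn1g, Hsd11b2 and Kcne1, between −0.58 (Kcne1) and −0.15 (Scnn1b). Aqp4 missed the threshold without saline replicate 2 and without any 1 of the 3 LPS+Tβ4 libraries (adjusted p = 0.198 without replicate 3). Cldn4 missed it without saline replicate 2 (0.059), LPS replicate 3 (0.085) and LPS+Tβ4 replicate 3 (0.254).

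Adipocyte genes had a list median of 5.61, with 7 of 10 tested genes higher and none lower. The median ran from 4.70 to 6.47 with a library left out and was 2.68 by limma on log2(FPKM + 1). Summed over the list they gave 1150, 308, 441, 1170 and 1360 CPM in the rich set and 127, 74.2, 97.7 and 154 CPM in the poor set. Plin1, the lipid droplet coat protein, was 41.7, 6.77, 18.4, 4.03 and 46.4 CPM against 0.304, 0.0911, 0.808 and 2.53 (5.77 ± 0.92, adjusted p = 0.021). Retn, resistin, was 6.22, 3.01, 2.17, 8.11 and 16.5 CPM against 0.0811, 0, 0.129 and 0.468 (6.30 ± 0.82, adjusted p = 0.0103). Cidec was higher by 4.03 ± 0.61 and Plin4 by 2.83 ± 0.42, the latter with overlapping sets. A further pair of list members is given after their values were seen. Adipoq, adiponectin, was 40.8, 9.04, 8.76, 22.5 and 21.1 CPM against 0.548, 0, 0 and 1.03 (6.06 ± 1.22, adjusted p = 0.0452). Ucp1, the uncoupling protein of brown fat, was 168, 20.8, 39.6, 18.4 and 3.48 CPM against 1.72, 0.128, 0 and 0.484 (5.64 ± 1.16, adjusted p = 0.0483). The order of the rich libraries thus differed between Ucp1, highest in saline replicate 2, and Plin1, highest in LPS+Tβ4 replicate 3. None of the 10 passed without LPS+Tβ4 replicate 3 (Plin4 0.111, Ucp1 0.195), without LPS replicate 3 or LPS+Tβ4 replicate 1 only 1 did, and 3 did without LPS+Tβ4 replicate 2. The part of adipocyte transcripts in the other differences was not tested.

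**Figure D4:**
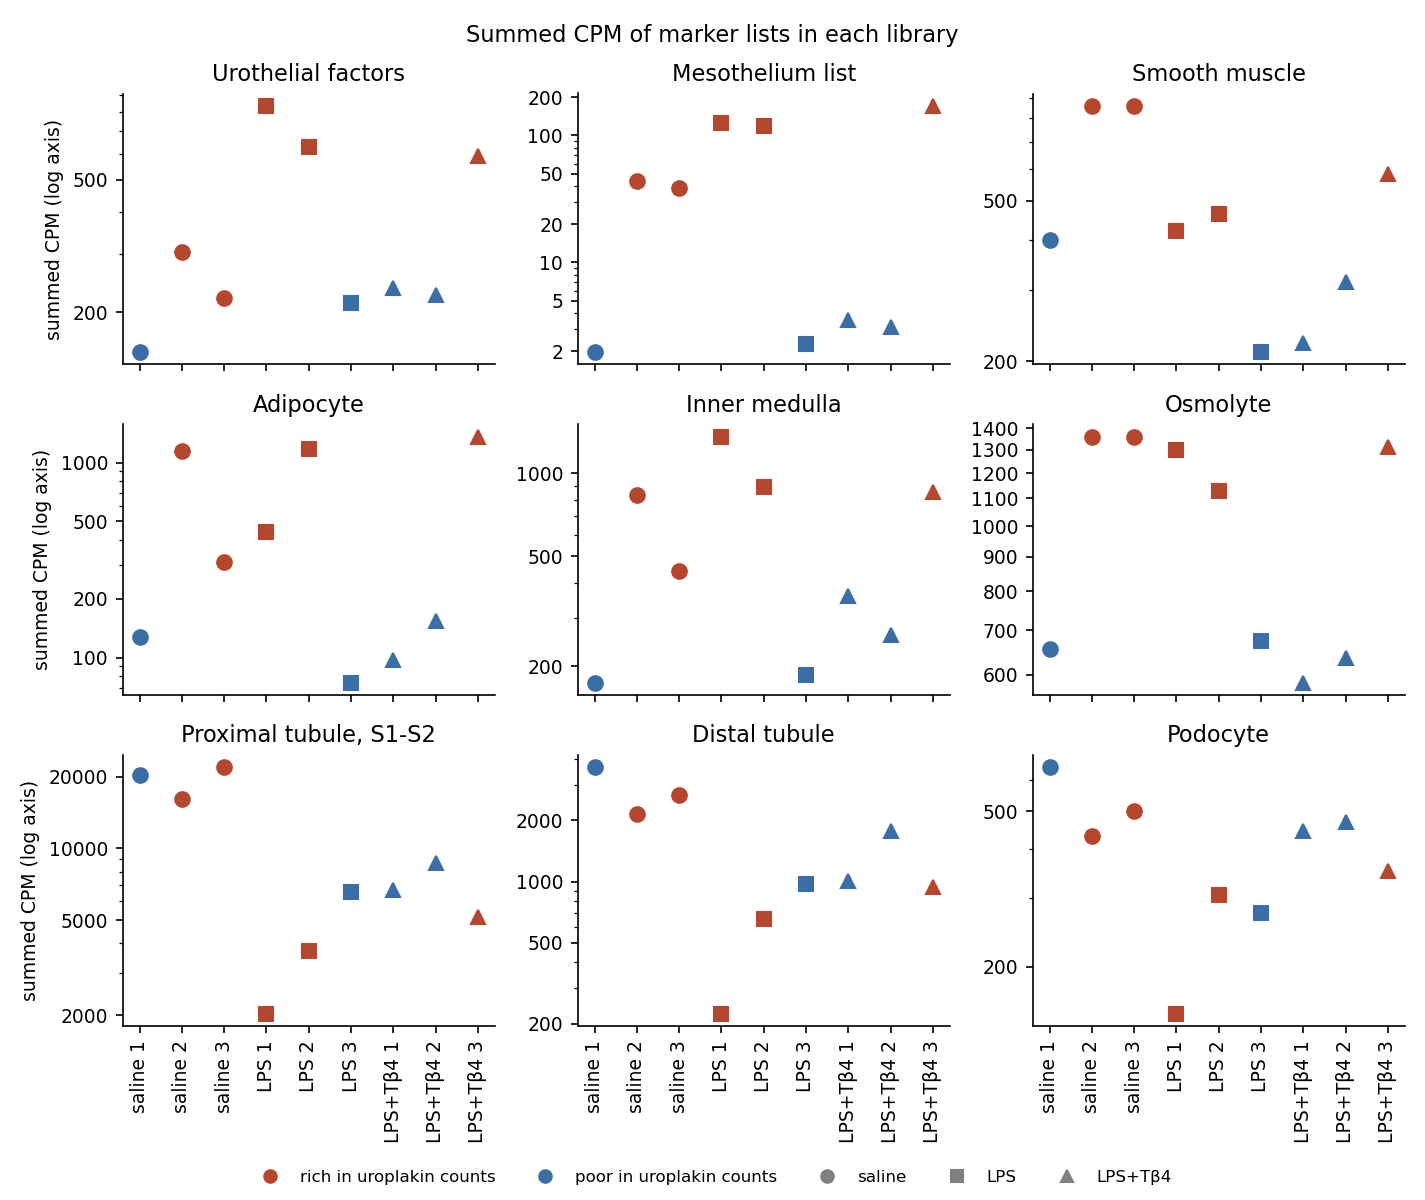
Summed CPM (log axis) of 9 marker lists in each library, red for rich and blue for poor libraries. Mesothelial, smooth muscle, adipocyte, inner medullary and osmolyte sums are higher in every red point than in every blue point, urothelial factors overlap narrowly, and the convoluted proximal tubule sum is higher in the 3 saline libraries (16100 to 21900) than in the 6 others.

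With all 9 libraries, genes of the cortical nephron were not called in either direction, and most stood lower in the rich libraries. All 16 genes of the convoluted proximal tubule were tested. None passed, each had a negative log2 difference, and their median was −0.59, against −0.02 over all genes. Their summed CPM was 16100, 21900, 2030, 3710 and 5140 in the rich set and 20300, 6560, 6710 and 8690 in the poor set, so the sets overlapped while treated libraries lay below saline. The 9 tested genes of the straight proximal tubule had a median of −0.73, and none passed. Distal tubule genes had a median of −0.88 (0 of 9), thick limb genes −0.27 (0 of 9), podocyte genes −0.34 (0 of 10) and intercalated cell genes −0.20 (0 of 10). The absence of calls depended on the libraries used. With 1 library left out, at most 2 convoluted proximal, 2 distal tubule, 1 straight proximal and 1 thick limb gene passed as lower. Calb1, the calbindin of distal and connecting tubule, did not pass (adjusted p = 0.236). Endothelial genes all had positive differences with a median of 0.58, and none passed (Pecam1 0.91 ± 0.22, adjusted p = 0.0818).

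The rule for named genes, which takes only genes without overlap between the sets, left 4 falls, fewer than the 12 it allows. B4galt5, a galactosyltransferase of glycosphingolipid synthesis (chr2:167298444-167349183), was 142, 143, 69.1, 75.3 and 94 CPM in the rich set and 224, 188, 179 and 178 CPM in the poor set. Every rich library lay below every poor one (−0.99 ± 0.14, adjusted p = 0.0116). Apoh, a plasma glycoprotein made by liver and proximal tubule, was 2.99, 3.09, 6.96, 11.6 and 8.45 CPM against 13.9, 17.5, 19.4 and 21.7 (−1.48 ± 0.26, adjusted p = 0.0277). Cdr2 differed by −0.90 ± 0.15 (adjusted p = 0.0236), also without overlap. None of the 4 passed without LPS+Tβ4 replicate 3 (adjusted p = 0.11 for B4galt5, 0.169 for Apoh and 0.185 for Cdr2). Calls for Mup9, Mup12 and Mup17, named after their values were seen, rested on saline replicate 1 alone. Mup9 had 927 and Mup12 853 counts there, and the other 8 libraries together had 0 and 1. The 19 Mup genes, which encode urinary proteins made by liver, summed to 10709 counts in that library and to 0 to 112 counts in each other one. Alb, serum albumin, was 311 CPM in saline replicate 1 and 1.06 to 36.5 CPM elsewhere. The part of hepatocyte transcripts in the differences was not tested.

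**Figure D5:**
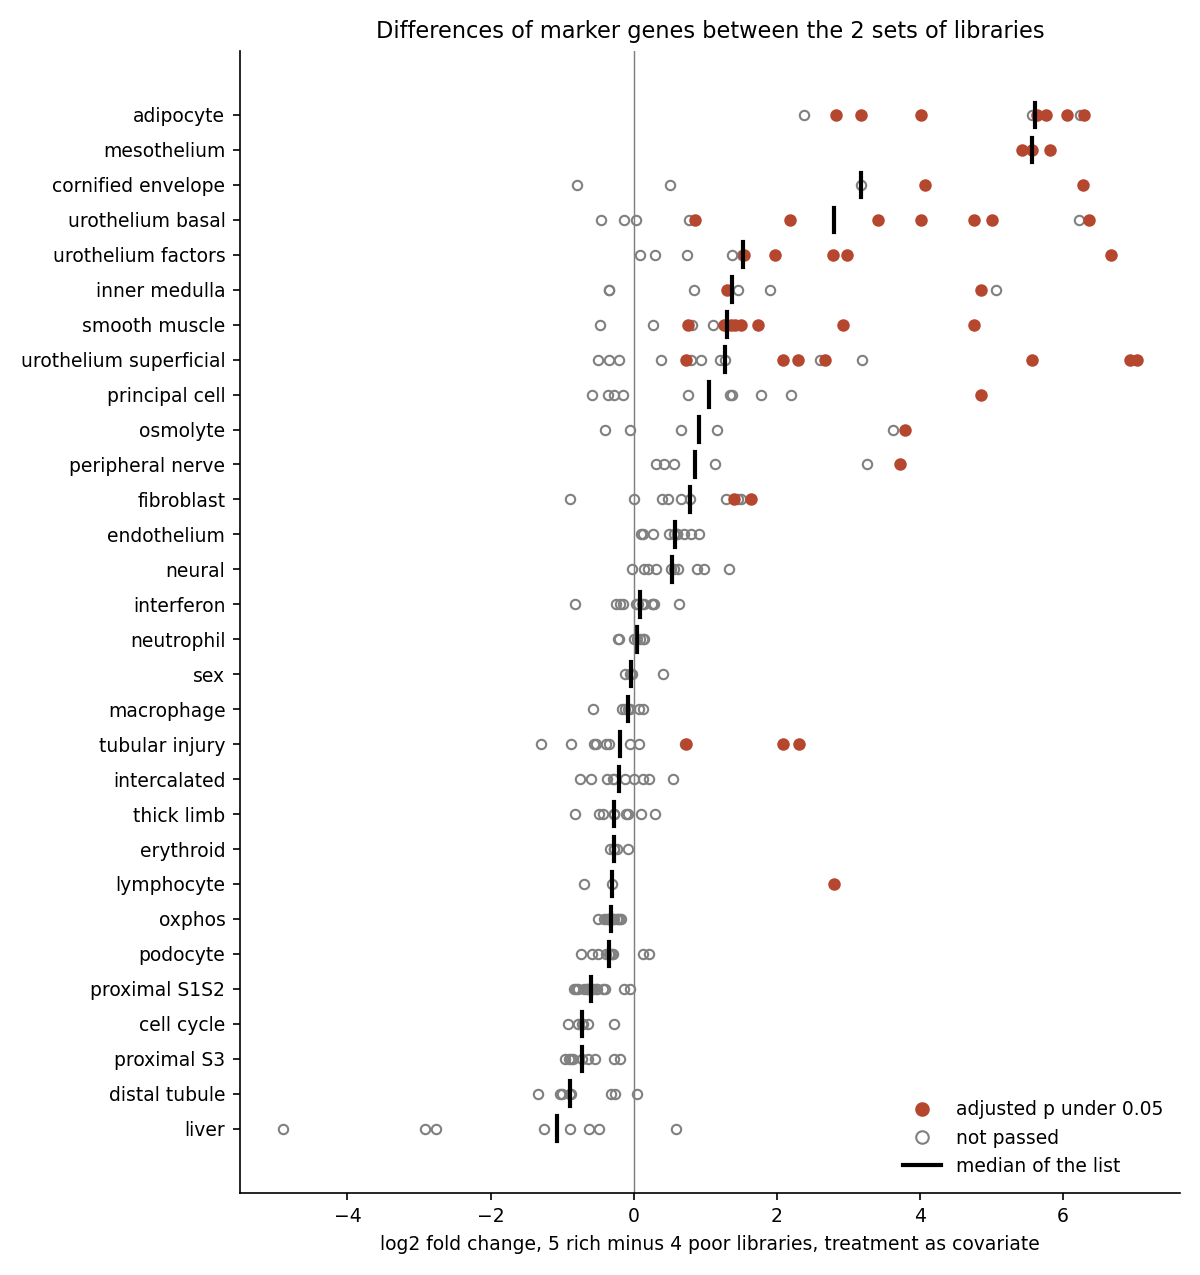
Log2 difference between the 5 rich and the 4 poor libraries, with treatment as covariate, for each tested gene of the marker lists with at least 3 tested genes. Filled red points passed an adjusted p of 0.05, open points did not, and black bars are list medians. Adipocyte and mesothelial lists lie highest (medians 5.61 and 5.57). The medians of cortical nephron lists lie below 0, from −0.88 (distal tubule) to −0.20 (intercalated cells).

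Other cell types that a kidney piece could hold gave few calls. Macrophage (0 of 7), neutrophil (0 of 7), erythroid (0 of 5), central neural (0 of 10), interferon (0 of 12), oxidative phosphorylation (0 of 14) and cell cycle genes (0 of 6) had none. Skeletal muscle, adrenal and hepatocyte lists and the sex-linked genes had none either. Ncmap of peripheral nerve (3.72 ± 0.49, adjusted p = 0.0103) and Cd79b of B cells (2.80 ± 0.56, adjusted p = 0.0429) were higher, each alone on its list. They stood at 0.163 and 0.38 without LPS+Tβ4 replicate 3, and Anxa2 at 0.263. Of 12 tubular injury markers 3 were higher, the keratins Krt18 and Krt8 and Anxa2 (2.31 ± 0.41, adjusted p = 0.0277), and the list median was −0.19. Clu, clusterin, was −0.52 ± 0.13 (adjusted p = 0.081). Proximal tubule and podocyte genes were present in all 9 libraries, with podocyte sums of 152 to 647 CPM, while exocrine pancreas genes reached at most 0.365 CPM. The mitochondrial share was 7.59 to 13.9% in the rich and 8.35 to 16.2% in the poor set.

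Some genes have reads that may be shared. Akr1b3, Aqp4, Apoh, Pparg, Plin4, Cryab, Synm, Ncmap, Anxa2 and Krt8 overlap an annotated gene on the opposite strand, and whether the authors' counting used strand is not given in the sources used here.

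A test of whether the rich-poor difference varied with treatment found 0 genes by edgeR, with 977 at an unadjusted p under 0.05. DESeq2 called 358 and limma on log2(FPKM + 1) called 10.

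With the set as covariate, LPS and saline were compared for the same lists. Of all 15015 genes 7225 (48.1%) differed between LPS and saline, 3531 higher (23.5%) and 3694 lower (24.6%) in LPS. The urothelial lists were near this share, with 5 of 10 factors, 9 of 17 upper layer genes and 5 of 12 basal genes called. This comparison shares libraries with the one between sets. Of the 10 urothelial factors 5 rose and none fell. Klf5 rose by 3.15 ± 0.27 (adjusted p = 0.00013), Elf3 by 2.34 ± 0.29 (adjusted p = 0.000504) and Ehf by 1.22 ± 0.25 (adjusted p = 0.0048), with Grhl2 and Tfap2a the others. Foxa1 (0.17 ± 1.14) and Pparg (−0.08 ± 0.39) did not pass. Of the 17 upper layer genes 7 rose and 2 fell, with Krt19 at 1.86 ± 0.44 (adjusted p = 0.00956), Krt8 at 1.89 ± 0.16 and Krt20 at 6.65 ± 0.93. Snx31 and Adh7 were the 2 that fell. Of the 12 basal genes 4 rose and 1, Fgfr3, fell. Of 12 smooth muscle genes 7 fell and none rose, with Myh11 at −1.49 ± 0.21 (adjusted p = 0.00103) and Cnn1 at −1.50 ± 0.29 (adjusted p = 0.004). Akr1b3 (−0.19 ± 0.14, adjusted p = 0.298) and Aqp4 (0.48 ± 0.84, adjusted p = 0.665) did not pass. With the set left out of the model, Krt19, Klf5, Cnn1 and Myh11 had adjusted p-values of 0.379, 0.0572, 0.375 and 0.124.

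Between LPS+Tβ4 and LPS, 984 genes differed with the set as covariate (6.55%), 602 higher and 382 lower. Without the set the count was 1025, and 819 genes were called by both models. For LPS against saline the model without the set called 6473 genes, 6426 of them shared. Among urothelial factors Klf5 (−1.19 ± 0.26, adjusted p = 0.0392) and Ovol1 (−0.87 ± 0.18, adjusted p = 0.0372) fell in LPS+Tβ4. None of the upper layer, basal, smooth muscle, inner medullary, osmolyte or adipocyte genes tested passed. Akr1b3 was 0.29 ± 0.15 with the set in the model and −0.54 without it, and Aqp4 was 0.70 ± 0.92 with it and −1.09 without it, none of them past the threshold. In all, 2 of the 3 LPS libraries but 1 of the 3 LPS+Tβ4 libraries were uroplakin-rich. The count fell to 2 genes without LPS replicate 3 (Slc1a2 among them) and to 2 without LPS+Tβ4 replicate 3 (Slc1a2 and Nat8f2), and rose to 3713 without LPS replicate 1. It was 674, 221 and 338 without saline replicates 1, 2 and 3, 177 without LPS replicate 2, and 150 and 78 without LPS+Tβ4 replicates 1 and 2.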

How the data were processed

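Kidney poly(A) RNA from 9 mice was sequenced as strand-marked paired reads, per the labels' protocols. The submitters' processing notes name cutadapt 1.9, HISAT2 2.2.1, StringTie 2.1.6, DESeq2, edgeR and GRCm38, with no role stated. One deposited table of 34310 genes holds raw read counts per gene, and the FPKM values beside them, which the authors scaled by gene length and library. No row without a gene entered a test.

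The members of each set, the marker lists and the tests were chosen with earlier results of these data known. Counts were tested with edgeR 4.0.16 (R 4.3.3): TMM scaling, quasi-likelihood F test, treatment and set as terms, 5 residual degrees of freedom, Benjamini-Hochberg adjustment over all genes averaging 0.5 FPKM or more. The FPKM values served that filter and an alternative with limma 3.58.1 on log2(FPKM + 1) and log2(FPKM + 0.1). DESeq2 1.42.0 was another alternative. Counts of genes in the set comparisons leave the 4 uroplakins out, though the fit and the adjustment include them. The 2 treatment comparisons use the same model. The model was tested on simulated data. Totals of 52953654 to 62019631 counts set the precision.

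Named genes are the 12 largest rises and falls among called genes that did not overlap between sets, averaging 1 FPKM or more and carrying a gene symbol that is no predicted name, and up to 4 members of each of 34 lists with the smallest adjusted p. Others are said to be named after their values were seen, also the non-members and the list members given with treatment effects. Some genes that the rule names are not reported here. Replicate numbers were checked for pairing. Figures used matplotlib.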

Additional observations from a re-analysis of the deposited data

Results flagged for a closer look

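Within each set of libraries, the summed CPM of 32 marker lists was examined for one library far from the rest of its set, by Dixon's test on the gap to its nearest neighbour. This made 64 examinations, and 8 stood out. For libraries of one kind chance alone gives about 1 in 20. Here each set mixed treatments and some lists shared genes, so the 8 cannot be compared with that rate. Saline replicate 1 stood apart from the 3 other poor libraries, all of which had received LPS, in 5 of the 8. Its convoluted proximal tubule genes summed to 20300 CPM against 6560 to 8690, and its endothelial genes to 419 CPM against 183 to 219. Its skeletal muscle genes summed to 28.6 CPM against 2.69 to 3.35, its oxidative phosphorylation genes to 8760 CPM against 5550 to 5940, and its cell cycle genes to 89.4 CPM against 20 to 27.6. Most of the skeletal muscle sum was Pvalb, which is also on the distal tubule list, at 27.7 CPM against 2.21 to 2.88. Saline replicate 1 is the only saline library of the poor set, so the set and the treatment cannot be told apart for these values. LPS replicate 3, the only LPS library of the poor set, had the lowest principal cell sum there, 138 CPM against 427 to 442. In the rich set, LPS replicate 2 had the lowest osmolyte sum, 1130 CPM against 1300 to 1360, and LPS+Tβ4 replicate 3 the lowest erythroid sum, 191 CPM against 536 to 656. The latter is the only LPS+Tβ4 library of the rich set. The erythroid sums of LPS+Tβ4 replicates 1 and 2, in the poor set, were low too, at 263 and 182 CPM. No gene passed the edgeR test for a rich-poor difference that varied with treatment (977 at an unadjusted p under 0.05, 358 called by DESeq2).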

How the results depend on the processing

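The main count of 382 genes differing between sets became 125 with a mean FPKM of at least 5, 1540 by DESeq2 (69.3% of them higher, against 93.7%), 62 with no treatment term and 1 (Akr1b3) in saline and LPS libraries only. With 1 library left out it ran from 2 (without LPS+Tβ4 replicate 3) to 880 (without saline replicate 1). Treatment dependence of the difference gave 358 genes by DESeq2, 10 by limma on log2(FPKM + 1) and 0 in each leave-one-out fit. LPS against saline gave 4013 genes at a mean FPKM of at least 5, where 7029 genes were tested, and 5719 to 7948 with a library left out. LPS+Tβ4 against LPS gave 551 at that filter, 2785 by DESeq2 and 2 to 3713 with a library left out. Limma on log2(FPKM + 1) gave 58.1% higher calls for LPS against saline (main 48.9%) and 76.6% for LPS+Tβ4 against LPS (main 61.2%). The causes were not tested. A replicate block moved the 3 counts from 382 to 598, from 7225 to 6900 and from 984 to 545. Same-numbered libraries shared a number only: 1 of 9 correlated best with its own number, and correlations ran from −0.63 to 0.26. The 61 called genes followed through the alternatives kept their direction in each, and 1, Akr1b3, passed in each. Mup9, Mup12 and Mup17 were not among the genes followed. The median of the thick limb list changed sign in 2 of 22 alternatives and that of the straight proximal tubule in 1. Depth did not resolve Upk2 and Upk3a in 3 poor libraries.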

Other observations

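Several genes outside the lists differed between the sets and are named after their values were seen. Wnt4, a signalling ligand of the renal medulla, was 20.9, 25, 76.6, 63 and 79.4 CPM in the rich set and 2.21, 1.6, 1.75 and 1.6 CPM in the poor set (log2 difference 4.77 ± 0.43, adjusted p = 0.00285). Sptssb, a subunit of the enzyme that starts sphingolipid synthesis, was 40.3, 22.4, 9.1, 8.67 and 21.5 CPM against 0.304, 0.328, 0.291 and 0.436 CPM (5.75 ± 0.40, adjusted p = 0.00184). Nfe2l3, a stress-response transcription factor, was 6.77, 3.97, 17, 12.5 and 18.2 CPM against 0.183, 0.601, 1.18 and 0.984 CPM (4.47 ± 0.30, adjusted p = 0.00181). It was the only gene beside Akr1b3 that passed without LPS+Tβ4 replicate 3 (adjusted p = 0.0434). The sets did not overlap for any of these 3 genes. Ctse, the aspartic protease cathepsin E, was higher by 4.69 ± 0.33, Postn, a matrix protein, by 4.37 ± 0.38, and S100a6, a calcium-binding protein, by 3.53 ± 0.27. Sgk1, a kinase that raises sodium transport in the collecting duct, was 227 to 371 CPM against 91.6 to 156 CPM (1.27 ± 0.13, adjusted p = 0.00438).

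Tlr4, the receptor for LPS, was also higher in the rich set. It was 6.11 and 5.79 CPM in the rich saline libraries, 30.5 and 27.6 in the rich LPS libraries and 22.9 in the rich LPS+Tβ4 library. The poor libraries had 2.66, 8.71, 5.62 and 5.19 CPM, so the sets overlapped through LPS replicate 3, while within each treatment the rich libraries were higher (1.67 ± 0.18, adjusted p = 0.00574). With the set in the model Tlr4 rose with LPS by 2.08 ± 0.22 (adjusted p = 0.000266). Its partners Cd14 (−0.53 ± 0.47, adjusted p = 0.553) and Ly96 (−0.20 ± 0.29, adjusted p = 0.726) did not pass between the sets. Without LPS+Tβ4 replicate 3 the adjusted p of Tlr4 was 0.0824, and that of Wnt4 0.0587, Sptssb 0.0511 and Sgk1 0.0616.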
